A study of Mus musculus with 2 samples.

Results

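The cadherins and the protocadherins that lie outside the clustered protocadherin loci were examined by RNA sequencing of mouse hippocampus. Members were all genes whose symbol is Cdh or Pcdh followed by a number, with an optional x, so that Pcdh11x was included and the clustered Pcdha, Pcdhb and Pcdhg genes were not. The rule found 35 genes, each with 1 identifier and all protein-coding, among 55536 annotated genes, of which 22028 are protein-coding. Total RNA came from 36-day-old male B6CASTF1/J mice, F1 hybrids between the inbred strains C57BL/6J and CAST/EiJ. The labels list biological replicates 1 and 2 with no treatment or mutation, and each library took 300 ng of RNA plus ERCC spike-in transcripts. Their donor identifier is the same but their biosamples differ, so they were taken as 2 animals. The tissue is labelled as a layer of hippocampus without naming the layer. Since there is 1 group, no conditions were compared, and the values below describe levels, transcripts, the spread between the libraries, and the difference between the deposited quantifications. Levels come from the gene table (with its transcript table, the first table), and a second table holds the authors' other quantification of transcripts.

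Cadherins are calcium-dependent adhesion proteins that hold neighbouring cells together through repeated extracellular domains. The classical cadherins bind p120 catenin and beta-catenin inside the cell, and beta-catenin joins them to alpha-catenin and actin. Type I and type II classical cadherins differ in the outermost repeat, which swaps a strand with its partner on the other cell by inserting tryptophan side chains. The non-clustered, or delta, protocadherins lack the catenin-binding tail, adhere more weakly and bind other cytoplasmic proteins, among them the WAVE actin-regulating complex. In the hippocampus, N-cadherin (Cdh2) sits at synapses, type II cadherins mark particular pathways, and delta protocadherins act in circuit formation and synapse loss.

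The gene tables summed to 28786216 expected counts for replicate 1 and 29755033 for replicate 2, of which ERCC transcripts took 0.421% in replicate 1 and 0.408% in replicate 2. Levels are given in TPM, the share of a library's transcripts scaled to a fixed total, which corrects for transcript length and can be compared between genes. All 4 markers of hippocampal excitatory neurons, 5 of 5 of dentate granule cells, 5 of 5 of CA1 and 5 of 5 of CA2 and CA3 reached 1 TPM in both libraries. The summed levels of regional markers differed between the libraries. The 5 CA1 markers summed to 274.7 TPM in replicate 1 and 228.8 TPM in replicate 2, and the 5 dentate markers to 117.3 TPM in replicate 1 and 142.9 TPM in replicate 2. The 8 choroid plexus markers summed to 8.61 TPM in replicate 1 and 191.3 TPM in replicate 2. The p-values below compare these 2 samples with counting noise only and do not measure variation between animals.

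The sequences that define the classical members come first, since they show what separates the type I from the type II genes. Each line gives the first 60 coding bases of the mature protein, that is, of the first extracellular repeat after the cleaved propeptide, with tryptophan codons TGG at codons 2 and 4 in capitals. They were read from the GENCODE M21 transcripts, with mm10 coordinates. Type I genes have TGG at codon 2 only:
Cdh4 (chr2:179797560-179797619, plus strand, exon 4): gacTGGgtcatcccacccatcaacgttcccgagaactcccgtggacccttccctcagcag
Cdh1 (chr8:106653582-106653641, plus strand, exon 4): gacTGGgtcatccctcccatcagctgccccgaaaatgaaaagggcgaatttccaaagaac
Cdh3 (chr8:106536618-106536677, plus strand, exon 4): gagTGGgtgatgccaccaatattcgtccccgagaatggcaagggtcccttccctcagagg
Cdh15 (chr8:122856592-122856651, plus strand, exon 2): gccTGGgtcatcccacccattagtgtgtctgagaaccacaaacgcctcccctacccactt
Type II genes have TGG at codons 2 and 4:
Cdh8 (chr8:99400735-99400794, minus strand, exon 2): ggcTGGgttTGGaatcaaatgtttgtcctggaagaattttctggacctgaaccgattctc
Cdh11 (chr8:102679621-102679680, minus strand, exon 3): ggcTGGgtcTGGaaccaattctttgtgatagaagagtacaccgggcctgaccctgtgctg
Cdh10 (chr15:18899751-18899810, plus strand, exon 2): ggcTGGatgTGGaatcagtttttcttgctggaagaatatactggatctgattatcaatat
Cdh9 (chr15:16778257-16778316, plus strand, exon 1): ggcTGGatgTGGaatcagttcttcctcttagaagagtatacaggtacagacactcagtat
Cdh12 (chr15:21237843-21237902, plus strand, exon 2): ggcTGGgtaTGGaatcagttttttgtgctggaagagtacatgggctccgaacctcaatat
Cdh24 (chr14:54639353-54639412, minus strand, exon 2): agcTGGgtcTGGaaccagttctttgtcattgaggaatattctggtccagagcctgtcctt
Cdh5 (chr8:104113034-104113093, plus strand, exon 2): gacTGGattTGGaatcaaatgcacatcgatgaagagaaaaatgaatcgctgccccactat
Cdh19 (chr1:110954572-110954631, minus strand, exon 2): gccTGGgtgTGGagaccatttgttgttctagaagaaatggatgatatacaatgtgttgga

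The start of this stretch was placed after a basic cleavage site (arginine or lysine, any residue, arginine or lysine, arginine) within the first 300 codons. A site was accepted only where codon 2 after it coded for tryptophan. TGG at codon 2 was thus fixed by the search, while codon 4 was left free. All 5 type I genes, Cdh2 among them, had such a site, without TGG at codon 4. All 13 type II genes had such a site, with TGG at codon 4. In each of 21660 protein-coding genes, the longest coding sequence that opens with a start codon was searched. Of these genes, 0.531% had such a site and 0.162% had one with TGG at codon 4, counted on the letters alone. These genes include the members, and without the members the shares were 0.444% and 0.102%. Compared base by base without gaps, the stretches were 50% to 81.7% identical within type I (median 63.3%, 10 pairs) and 41.7% to 81.7% within type II (median 66.7%, 78 pairs). Pairs of a type I and a type II gene were 30.0% to 50% identical (median 41.7%, 65 pairs). Cdh5 and Cdh19 show how far the type II stretch varies beyond its tryptophan codons.

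The hippocampus expressed most of the family. Of the 35 genes, 27 (77.1%) reached 1 TPM in both libraries, beside 57.8% of all protein-coding genes and 26.8% of all annotated genes. Together they held 675.7 TPM in replicate 1 and 632.9 TPM in replicate 2. Their counts were 0.216% of all gene counts in replicate 1 and 0.206% in replicate 2. Protocadherins carried the larger part of this RNA. The 4 delta-1 protocadherins held 38.8% of the summed TPM in replicate 1 and 39.3% in replicate 2, and the 5 delta-2 protocadherins held 18.5% in replicate 1 and 17.3% in replicate 2. The 13 type II cadherins held 22.9% in replicate 1 and 22.2% in replicate 2, and the 5 type I cadherins 7.52% in replicate 1 and 8.12% in replicate 2. The 5 highest genes, Pcdh1, Pcdh9, Pcdh20, Cdh2 and Pcdh10, made up 55.4% of the sum in replicate 1 and 56.8% in replicate 2. Among the 27 genes the median level was 15.4 TPM, against 15.0 TPM for the 12733 protein-coding genes that reached 1 TPM. In bulk tissue, fewer cells of a type and less RNA per cell cannot be told apart.

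**Figure D1:**
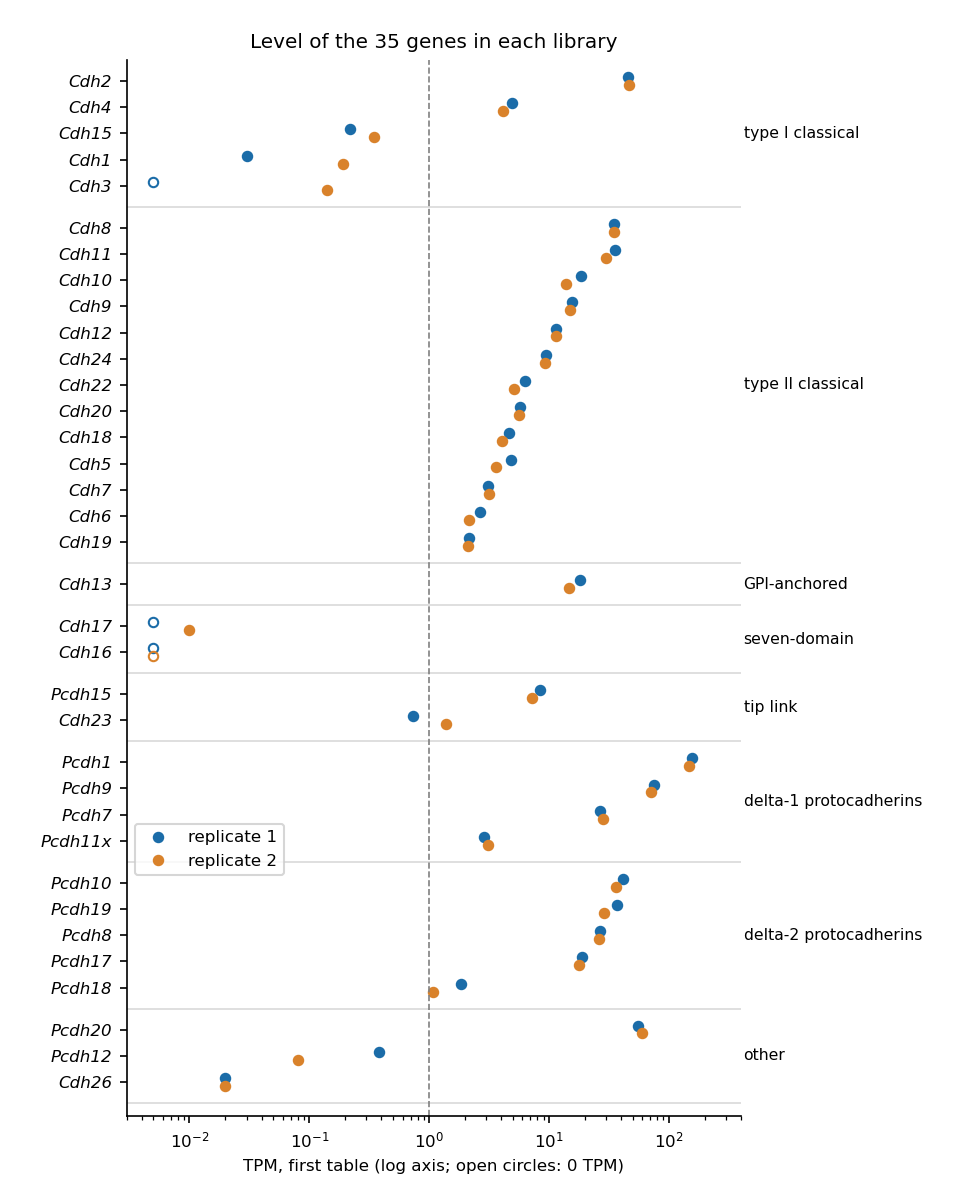
Level of the 35 genes in TPM (horizontal log axis, first table), grouped by class, with a point for replicate 1 and a point for replicate 2 and a dashed line at 1 TPM. All 13 type II genes lie to the right of the line, from 2.11 TPM (Cdh19) to 35.58 TPM (Cdh11), and the type I genes Cdh1, Cdh3 and Cdh15 lie to its left in both libraries.

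The type I class rested on Cdh2. N-cadherin is the classical cadherin of neuronal synapses, and the gene had 45.66 TPM (3967 counts) in replicate 1, against 46.59 TPM (4227 counts) in replicate 2 (mean 46.12 ± 0.658 TPM, SD, n = 2). Cdh4, R-cadherin, its closest relative in the class, had 4.90 TPM (491 counts) in replicate 1 and 4.14 TPM (495 counts) in replicate 2. The other 3 genes, which define tissues other than brain, were under 1 TPM in both libraries. Cdh15, M-cadherin of muscle, had 14 counts in replicate 1 and 24 in replicate 2, Cdh1, E-cadherin of epithelia, had 3 in replicate 1 and 18 in replicate 2, and Cdh3, P-cadherin, had 0 in replicate 1 and 13 in replicate 2. Each of the 3 low genes had the higher count in replicate 2.

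All 13 type II cadherins reached 1 TPM in both libraries, and none was as high as Cdh2. Cdh8, studied at hippocampal and thalamic synapses, and Cdh11, first known from bone and mesenchyme, led the class. Cdh8 (chr8:99024471-99416471) had 34.84 TPM (2369 counts) in replicate 1, against 35.19 TPM (2509 counts) in replicate 2. Cdh11 (chr8:102632095-102785642) had 35.58 TPM (3184 counts) in replicate 1 and 29.95 TPM (2836 counts) in replicate 2. The libraries were alike for Cdh8, whereas Cdh11 was higher in replicate 1.

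A middle group lay near 10 to 20 TPM. Cdh9 and Cdh10, which with Cdh6 have been studied in plasticity at CA1 synapses, differed in how well the libraries matched. Cdh10 had 18.38 TPM (1182 counts) in replicate 1, against 13.86 TPM (941 counts) in replicate 2. Cdh9, also known for its part in mossy fibre synapses, had 15.62 TPM (1061 counts) in replicate 1 and 15.10 TPM (1092 counts) in replicate 2. Cdh12, a brain cadherin, had 11.48 TPM (870 counts) in replicate 1 and 11.45 TPM (901 counts) in replicate 2. Cdh24, a widely expressed type II cadherin, had 9.48 TPM (661 counts) in replicate 1 and 9.34 TPM (683 counts) in replicate 2. Of these 4 genes, Cdh10 alone differed between the libraries by more than a few percent.

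The remaining 7 type II genes lay between 2 TPM and 7 TPM. Cdh22, named for pituitary and brain, had 6.33 TPM (469 counts) in replicate 1, against 5.10 TPM (396 counts) in replicate 2. Cdh20 had 5.69 TPM (458 counts) in replicate 1 and 5.59 TPM (472 counts) in replicate 2, and its near relative Cdh7 had 3.07 TPM (218 counts) in replicate 1 and 3.13 TPM (210 counts) in replicate 2. Cdh18, a cadherin of the central nervous system, had 4.68 TPM (253 counts) in replicate 1 and 4.05 TPM (219 counts) in replicate 2. Of these, Cdh22 and Cdh18 were higher in replicate 1, while Cdh20 and Cdh7 matched closely. Cdh5, VE-cadherin of endothelial junctions, had 4.80 TPM (340 counts) in replicate 1 and 3.61 TPM (300 counts) in replicate 2. Cdh6 had 2.67 TPM (427 counts) in replicate 1 and 2.15 TPM (357 counts) in replicate 2. Cdh19, known from Schwann cell precursors, had 2.16 TPM (128 counts) in replicate 1 and 2.11 TPM (150 counts) in replicate 2. Cdh6 has a long transcript of 8167 bases, so its counts exceed those of Cdh5 at a lower TPM.

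Outside the classical cadherins the spread was wider. Cdh13, T-cadherin, which is held to the membrane by a lipid anchor in place of a cytoplasmic tail, had 18.27 TPM (1290 counts) in replicate 1, against 14.75 TPM (1098 counts) in replicate 2. The seven-domain cadherins of kidney (Cdh16) and of liver and intestine (Cdh17) lay at or under the floor of detection in the first table. Cdh16 had 0 counts in both libraries and Cdh17 had 0 in replicate 1 and 1 in replicate 2, where 0 counts allow up to 3 counts, or 0.104 CPM, the count scaled to a fixed library size, in replicate 1 and 0.101 CPM in replicate 2. The second table gave Cdh17 8.0 counts in replicate 1 and 10.1 in replicate 2, all on the transcript Cdh17-202, so its detection depended on the quantification. Pcdh15 and Cdh23 form the tip links of inner ear hair cells, where they bind each other. Pcdh15 had 8.42 TPM (801 counts) in replicate 1 and 7.25 TPM (638 counts) in replicate 2, and Cdh23 had 0.74 TPM (58 counts) in replicate 1 and 1.39 TPM (87 counts) in replicate 2. The tip link pair was thus unequal in this tissue, with Pcdh15 the higher in both libraries.

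The delta-1 protocadherins held the highest gene of all. Pcdh1 (chr18:38185914-38212053) had 156.66 TPM (13810 counts) in replicate 1, against 145.96 TPM (13455 counts) in replicate 2 and ranked 424 among protein-coding genes by mean TPM. Pcdh9 (chr14:93013410-93890679), which has been linked to recognition and cortical structure in mouse knockouts, had 75.62 TPM (5706 counts) in replicate 1 and 71.18 TPM (5482 counts) in replicate 2. Pcdh7 (chr5:57717967-58133230), which binds the phosphatase PP1, had 26.68 TPM (3162 counts) in replicate 1 and 28.31 TPM (3091 counts) in replicate 2. Pcdh11x, on the X chromosome, had 2.89 TPM (327 counts) in replicate 1 and 3.11 TPM (347 counts) in replicate 2. The order Pcdh1, Pcdh9, Pcdh7, Pcdh11x was the same in both libraries, and the ranges of neighbours did not overlap.

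The delta-2 protocadherins were more even, with the exception of Pcdh18. Pcdh10, which takes part in activity-driven synapse elimination, had 41.07 TPM (4478 counts) in replicate 1, against 36.32 TPM (3985 counts) in replicate 2. Pcdh19, whose human counterpart is mutated in an X-linked epilepsy, had 37.22 TPM (4882 counts) in replicate 1 and 28.50 TPM (4804 counts) in replicate 2. Its TPM differed more between the libraries than its counts did, and the transcripts behind this are given below. Pcdh8, known as arcadlin and induced by neuronal activity, had 26.41 TPM (1956 counts) in replicate 1 and 25.98 TPM (2127 counts) in replicate 2. Pcdh17, which recruits the WAVE complex at cell contacts, had 18.73 TPM (4157 counts) in replicate 1 and 17.72 TPM (4097 counts) in replicate 2. Pcdh18, which binds the reelin pathway adaptor Dab1, had 1.84 TPM (192 counts) in replicate 1 and 1.08 TPM (118 counts) in replicate 2. Pcdh18 was the lowest of the 27 genes.

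The last 3 genes belong to none of these classes. Pcdh20 (chr14:88464743-88471396) had 55.19 TPM (5029 counts) in replicate 1, against 59.23 TPM (5783 counts) in replicate 2, the third highest level of the family. Pcdh12, also called VE-cadherin-2 and known from endothelium and placenta, had 23 counts in replicate 1 and 7 in replicate 2. Cdh26, an epithelial cadherin, had 1 count in each library.

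Ordered by mean TPM, the 27 genes form 26 neighbouring pairs, and the ranges of the libraries overlapped in 10 of them. The ranges of Pcdh1, Pcdh9, Pcdh20 and Cdh2 overlapped with that of no other member. Pcdh10, next in order, overlapped with Pcdh19. Cdh8, Pcdh19 and Cdh11 could not be ordered, nor could Pcdh17, Cdh13, Cdh10 and Cdh9 as a run. The same held for Cdh22 with Cdh20, for Cdh4, Cdh18 and Cdh5, for Cdh7 with Pcdh11x and for Cdh6 with Cdh19.

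Several genes spread their RNA over transcripts with different coding ends, and Cdh8 was the clearest case. The last 33 coding bases and the stop codon, in capitals, of its 4 main transcripts are shown because each ends in a different place (chr8, minus strand, GENCODE M21 transcripts, mm10):
Cdh8-203 (799 codons, chr8:99030565-99030600): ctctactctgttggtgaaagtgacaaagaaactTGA
Cdh8-207 (754 codons, chr8:99024819-99024854): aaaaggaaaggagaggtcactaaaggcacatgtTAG
Cdh8-201 (716 codons, chr8:99029850-99029885): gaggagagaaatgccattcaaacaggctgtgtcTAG
Cdh8-204 (711 codons, chr8:99024911-99024946): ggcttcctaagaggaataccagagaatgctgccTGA
The leading transcript was Cdh8-204, with 36.80% of the gene's TPM in replicate 1 and 37.07% in replicate 2. Cdh8-203, the longest coding sequence, held 24.23% in replicate 1 and 23.88% in replicate 2. Cdh8-201 held 19.47% in replicate 1 and 18.37% in replicate 2, and Cdh8-207 held 12.58% in replicate 1 and 14.23% in replicate 2. The 4 shares differed by less than 2 percentage points between the libraries. In the second table they were 39.5% in replicate 1 and 36.6% in replicate 2 for Cdh8-204, 26.1% in replicate 1 and 27.8% in replicate 2 for Cdh8-203, 15.6% in both for Cdh8-201, and 11.3% in replicate 1 and 12.8% in replicate 2 for Cdh8-207. The order of the 4 transcripts was the same in both libraries and both tables.

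Pcdh10 was divided in a similar way. Its coding transcripts also end in different exons on chr3 (plus strand), which is why their last 33 coding bases and stop codons are shown:
Pcdh10-201 (1057 codons, exon 5, chr3:45432509-45432544): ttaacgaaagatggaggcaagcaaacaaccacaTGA
Pcdh10-203 (1047 codons, exon 5, chr3:45399328-45399363): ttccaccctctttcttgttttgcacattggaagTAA
Pcdh10-202 (1040 codons, across 2 exons between chr3:45392859-45419426): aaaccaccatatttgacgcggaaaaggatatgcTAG
Pcdh10-204 (896 codons, in a transcript of 1 exon, chr3:45381908-45381943): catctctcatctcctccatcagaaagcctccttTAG
Pcdh10-202 led with 32.86% in replicate 1 and 30.13% in replicate 2. Pcdh10-204, the transcript of 1 exon, held 24.36% in replicate 1 and 26.84% in replicate 2. The noncoding Pcdh10-205, of 634 bases, held 22.83% in replicate 1 and 24.73% in replicate 2 on only 103.2 counts in replicate 1 and 103.7 in replicate 2. In the second table Pcdh10-205 led, with 45.4% in replicate 1 and 44.3% in replicate 2, so the share of this short transcript depended on the quantification.

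**Figure D2:**
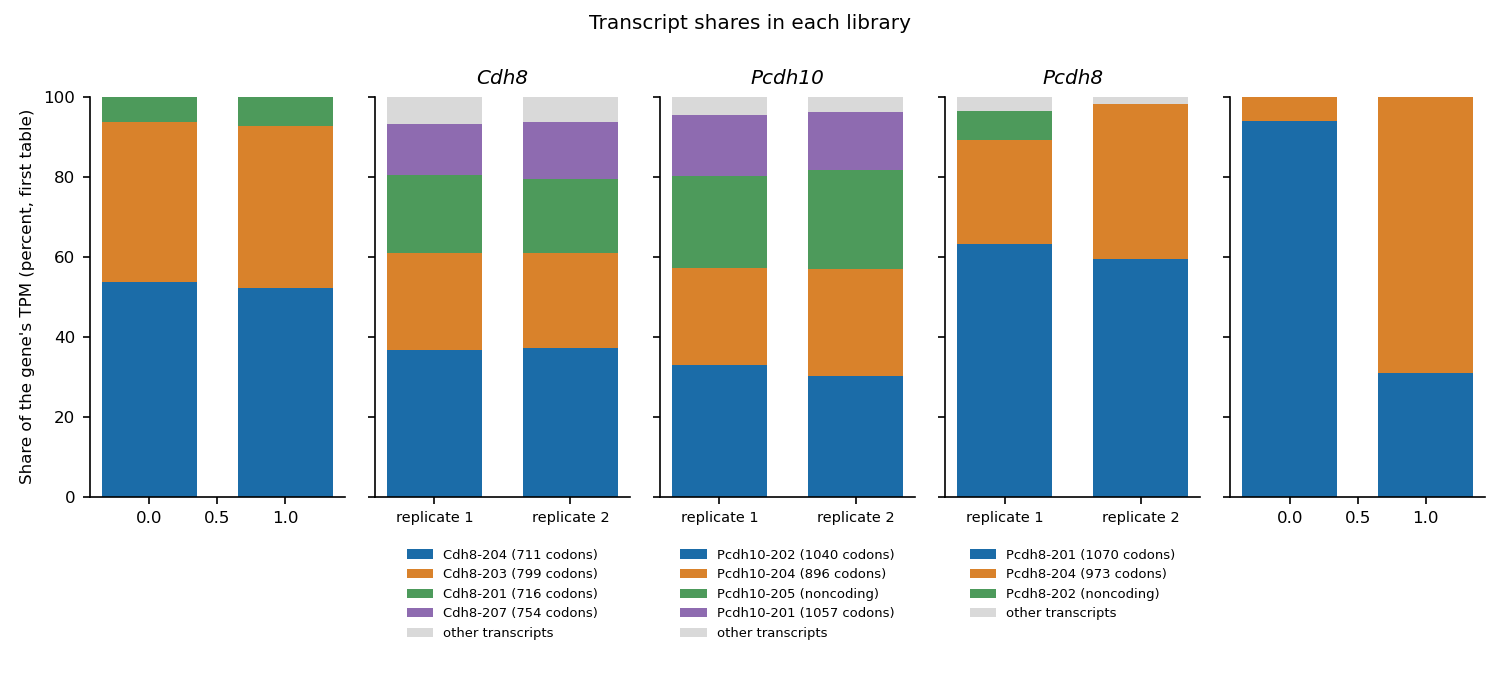
Share of each gene's TPM (vertical axis, percent, first table) held by its transcripts in replicate 1 (left bar) and replicate 2 (right bar). Panels from left to right are Cdh2, Cdh8, Pcdh10, Pcdh8 and Pcdh18. Legends give the coding length in codons for Cdh8, Pcdh10 and Pcdh8. The Cdh2 and Pcdh18 panels have no title or legend, and their lowest blocks are Cdh2-201 and Pcdh18-201. The stacks match between the libraries for Cdh2, Cdh8 and Pcdh10, while in Pcdh18 the transcript Pcdh18-201 holds 93.86% in replicate 1 and 30.92% in replicate 2.

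Other abundant members were also divided. Cdh2-201 (906 codons) held 53.59% of Cdh2 in replicate 1 and 52.21% in replicate 2, and Cdh2-202 (849 codons), with the same coding end, held 39.98% in replicate 1 and 40.54% in replicate 2. For Pcdh1, Pcdh1-204 held 42.13% in replicate 1 and 43.31% in replicate 2, and Pcdh1-203, a transcript with 360 codons, held 35.81% in replicate 1 and 36.01% in replicate 2. The coding sequence of Pcdh1-204 is incomplete at its start in the annotation, so its full length is not known from there. Pcdh8-201 (1070 codons) held 63.11% in replicate 1 and 59.45% in replicate 2, and Pcdh8-204 (973 codons) held 26.17% in replicate 1 and 38.67% in replicate 2. Pcdh20-201 held 62.17% in replicate 1 and 67.28% in replicate 2 and Pcdh20-202 held 37.83% in replicate 1 and 32.72% in replicate 2. Both code for the same 952 codons. In the second table Pcdh20-202 led, with 52.1% in replicate 1 and 50.4% in replicate 2. Pcdh7-203 (1255 codons) held 54.28% in replicate 1 and 45.97% in replicate 2, with 18.17% in replicate 1 and 24.46% in replicate 2 for Pcdh7-207, a transcript of 659 bases. For each of these genes the transcripts named here were present in both libraries.

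Some genes were dominated by a single coding transcript. Pcdh17-201 held 94.13% of Pcdh17 in replicate 1 and 93.40% in replicate 2, Cdh13-201 held 85.83% in replicate 1 and 86.66% in replicate 2, and Cdh9-202 held 78.81% in replicate 1 and 86.49% in replicate 2. In the second table Cdh13-201 held less, 62.3% in replicate 1 and 63.8% in replicate 2. There the noncoding Cdh13-208, of 580 bases, held 24.2% in replicate 1 and 23.2% in replicate 2. Cdh10-202 held 68.77% in replicate 1 and 61.98% in replicate 2 in the first table, whereas the second table gave Cdh10-201 the lead with 56.1% in replicate 1 and 56.2% in replicate 2; both code for the same 788 codons. Across the 27 genes, transcripts annotated as protein-coding held a median of 93.7% of the gene's TPM, beside 87.5% for all protein-coding genes at 1 TPM. In 9 of the genes the share was 100% in both libraries, and in 8 it was under 80% on average.

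In several of the genes under 80%, short or intron-retaining transcripts held much of the rest. Pcdh9-203, a retained intron of 656 bases, held 25.56% in replicate 1 and 26.07% in replicate 2, next to the coding Pcdh9-204 with 30.64% in replicate 1 and 28.85% in replicate 2 and Pcdh9-205 with 26.46% in replicate 1 and 27.75% in replicate 2. Cdh11-203, a retained intron of 599 bases, held 22.95% in replicate 1 and 22.12% in replicate 2 beside 69.49% in replicate 1 and 69.64% in replicate 2 for the coding Cdh11-201. Cdh12-202, noncoding and 404 bases long, held 39.64% in replicate 1 and 40.25% in replicate 2 on 28.5 counts in replicate 1 and 30.3 in replicate 2, and Cdh12-203 (794 codons) held 60.36% in replicate 1 and 59.75% in replicate 2 on 841.5 counts in replicate 1 and 871.0 in replicate 2. Shares in TPM divide by length, so a few counts weigh heavily on a short transcript. Pcdh15, with 41 annotated transcripts, had the lowest coding share, 53.1% in replicate 1 and 44.4% in replicate 2.

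In Pcdh19 a short transcript weighed on the level of the whole gene. Pcdh19-202 (1145 codons) had 17.56 TPM in replicate 1, against 17.42 TPM in replicate 2, which was 47.19% of the gene in replicate 1 and 61.12% in replicate 2. Pcdh19-204, an annotated target of nonsense-mediated decay of 335 bases, had 12.62 TPM in replicate 1, against 5.44 TPM in replicate 2 on 61.3 counts in replicate 1 and 27.7 in replicate 2. The second table gave Pcdh19-204 no reads in either library and put the whole gene at 36.1 TPM in replicate 1 and 34.7 TPM in replicate 2. The difference in Pcdh19 TPM between the libraries thus lay mainly in this short transcript and was small in the second table.

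For 26 members with more than 1 transcript, the leading transcript was the same in both libraries in 23, beside 88.3% of 11524 protein-coding genes of the same kind. The exceptions were Cdh7, Pcdh15 and Pcdh18, which were named after their values were seen. Pcdh18-201 (1134 codons) had 180.3 counts and 93.86% of the gene in replicate 1, against 36.6 counts and 30.92% in replicate 2. Pcdh18-202 (917 codons) had 11.7 counts and 6.14% in replicate 1, against 81.4 counts and 69.08% in replicate 2. The second table gave almost the same Pcdh18 shares, 94.2% in replicate 1 and 29.2% in replicate 2 for Pcdh18-201. The libraries therefore held the 2 coding forms in opposite proportion, on few counts, and the difference in share was not tested. In Cdh7 the transcript Cdh7-202, which codes for the full 785 codons, held 18.22% in replicate 1 and 22.14% in replicate 2. Cdh7-204, an annotated target of nonsense-mediated decay of 4211 bases, led in replicate 1 with 24.43% and held 21.09% in replicate 2. Cdh7-207, of 714 bases, led in replicate 2 with 25.02% on only 10.4 counts. It held 18.23% in replicate 1 on 7.1 counts. The second table gave Cdh7-207 0% in replicate 1 and 40.4% in replicate 2. In the second table the leading transcript was the same in both libraries in 22 members, beside 85.8% of the protein-coding genes. Both tables gave the same leading transcript in 20 of the 26 genes, beside 74.9% of the protein-coding genes.

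How far the libraries differed was asked for each gene with an exact two-sided binomial test on counts scaled with TMM (trimmed mean of M values), adjusted by the Benjamini-Hochberg method over the 18270 genes whose mean count reached 10. The test compares these 2 libraries beyond counting noise and has no replicate check. A gene was called apart with an adjusted p under 0.05 and at least 1.5-fold between the libraries. Of 31 members tested, 3 were apart (9.68%), beside 1.80% of all genes tested, 0.629% higher in replicate 1 and 1.17% higher in replicate 2. The members' share exceeded the background, on a count of 3 genes of which 2 had under 1 TPM in both libraries. The median log2 ratio of the members, replicate 1 over replicate 2, was 0.064, and that of all genes tested was 0.001.

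Pcdh18 was the member above 1 TPM that was apart. Its scaled count was 1.67 times as high in replicate 1 as in replicate 2 (95% interval 1.32 to 2.12, exact binomial test, adjusted p = 2.51e-04). Pcdh12, with 23 counts in replicate 1 and 7 in replicate 2, was 3.22 times as high in replicate 1 (interval 1.40 to 9.33, exact test, adjusted p = 0.0398). In the second table the Pcdh12 difference did not pass, at 2.82-fold and an adjusted p of 0.0767 by the exact test. Of the endothelial markers, Cldn5 had 595 counts in replicate 1 and 472 in replicate 2, Tek had 335 in replicate 1 and 258 in replicate 2, and Pecam1 had 398 in replicate 1 and 436 in replicate 2. Ly6c1 had 370 counts in replicate 1 and 464 in replicate 2, and Flt1 had 1880 in replicate 1 and 1858 in replicate 2. Of the mural markers, Pdgfrb had 768 counts in replicate 1 and 560 in replicate 2, and Rgs5 had 1798 in replicate 1 and 1535 in replicate 2. The third, Vtn, had 810 in replicate 1 and 884 in replicate 2. The 5 endothelial markers summed to 74.16 TPM in replicate 1 and 72.29 TPM in replicate 2, and the 3 mural markers to 53.62 TPM in replicate 1 and 51.61 TPM in replicate 2. The 4 meningeal markers summed to 61.60 TPM in replicate 1 and 64.48 TPM in replicate 2, and 1 of them, Dcn, was apart, with 812 counts in replicate 1 and 495 in replicate 2. The other 3 were higher in replicate 2, among them Igf2 with 1298 counts in replicate 1 and 1792 in replicate 2 and Col1a2 with 586 in replicate 1 and 816 in replicate 2. None of the 5 endothelial and 3 mural markers was apart by the exact test, although 3 endothelial and 2 mural markers had an adjusted p under 0.05 at less than 1.5-fold. Of these, Cldn5, Tek, Pdgfrb and Rgs5 were higher in replicate 1 and Ly6c1 was higher in replicate 2. Their part in the difference was not tested.

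Cdh1 lay in the other direction. It had 3 counts in replicate 1, against 18 in replicate 2, a ratio of 0.194 (95% interval 0.0323 to 0.587, exact binomial test, adjusted p = 0.0210). Cdh3, its neighbour on chromosome 8, had too few counts for the test. Its 13 counts in replicate 2 were 4.21-fold higher than the 3 counts that 0 counts in replicate 1 allow. That value leaves out the counting error of the 13 counts. With it, the exact 95% interval of replicate 2 over replicate 1 began at 2.96 and had no upper limit. Both are cadherins of epithelia, and the epithelial choroid plexus markers stood higher in replicate 2 in 8 of 8 genes, with 6 of the 7 tested called apart. Ttr had 81 counts in replicate 1 and 4202 in replicate 2, Kcne2 had 1 in replicate 1 and 18 in replicate 2, and Aqp1 had 4 in replicate 1 and 53 in replicate 2. Their part in the Cdh1 and Cdh3 difference was not tested.

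The differences of 1.5-fold or more sat at low counts, and smaller differences were called among the abundant members. A further 10 members had an adjusted p under 0.05 at less than 1.5-fold, so that 13 of 31 (41.9%) differed beyond counting noise, beside 11.2% of all genes tested. Genes with many counts pass this test at small ratios. Of the 31 members tested, 11 were called higher in replicate 1 and 2 were called higher in replicate 2. Of all 18270 genes tested, 848 (4.64%) were called higher in replicate 1 and 1194 (6.54%) in replicate 2. The ratio of replicate 1 over replicate 2 was 1.29 for Cdh10 (interval 1.18 to 1.41) and 1.29 for Pcdh15 (1.16 to 1.44). For the lipid-anchored Cdh13 the ratio was 1.21 (1.11 to 1.31), for Cdh6 1.23 (1.07 to 1.42) and for Cdh22 1.22 (1.06 to 1.40). For Pcdh10 it was 1.16 (1.11 to 1.21) and for Cdh11 1.15 (1.10 to 1.22). Pcdh9 and Pcdh1 had ratios of 1.07 and 1.06. Only Pcdh20 among these was higher in replicate 2, with a ratio of 0.894 (0.861 to 0.929, exact binomial test, adjusted p = 3.55e-07). The regional markers also differed, with CA1 markers higher in replicate 1 and dentate markers higher in replicate 2 in 5 of 5 genes each. Higher in replicate 1 were also 5 of 5 interneuron markers (380.9 TPM in replicate 1 and 346.4 TPM in replicate 2 when summed), 4 of 4 neocortical markers (59.26 TPM in replicate 1 and 50.13 TPM in replicate 2) and 4 of 5 markers of oligodendrocytes and their precursors (1509 TPM in replicate 1 and 1435 TPM in replicate 2). Other sets were higher in replicate 2. These were 4 of 4 astrocyte markers (676.7 TPM in replicate 1 and 680.5 TPM in replicate 2) and 4 of 5 CA2 and CA3 markers (238.7 TPM in replicate 1 and 250.4 TPM in replicate 2). The same direction was seen in 4 of 4 ependymal and 2 of 3 thalamic markers. Among hippocampal excitatory neuron markers 3 of 4 were higher in replicate 1, as were 2 of 3 microglial and 2 of 3 striatal markers. The part of these markers in the ratios of the members was not tested.

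**Figure D3:**
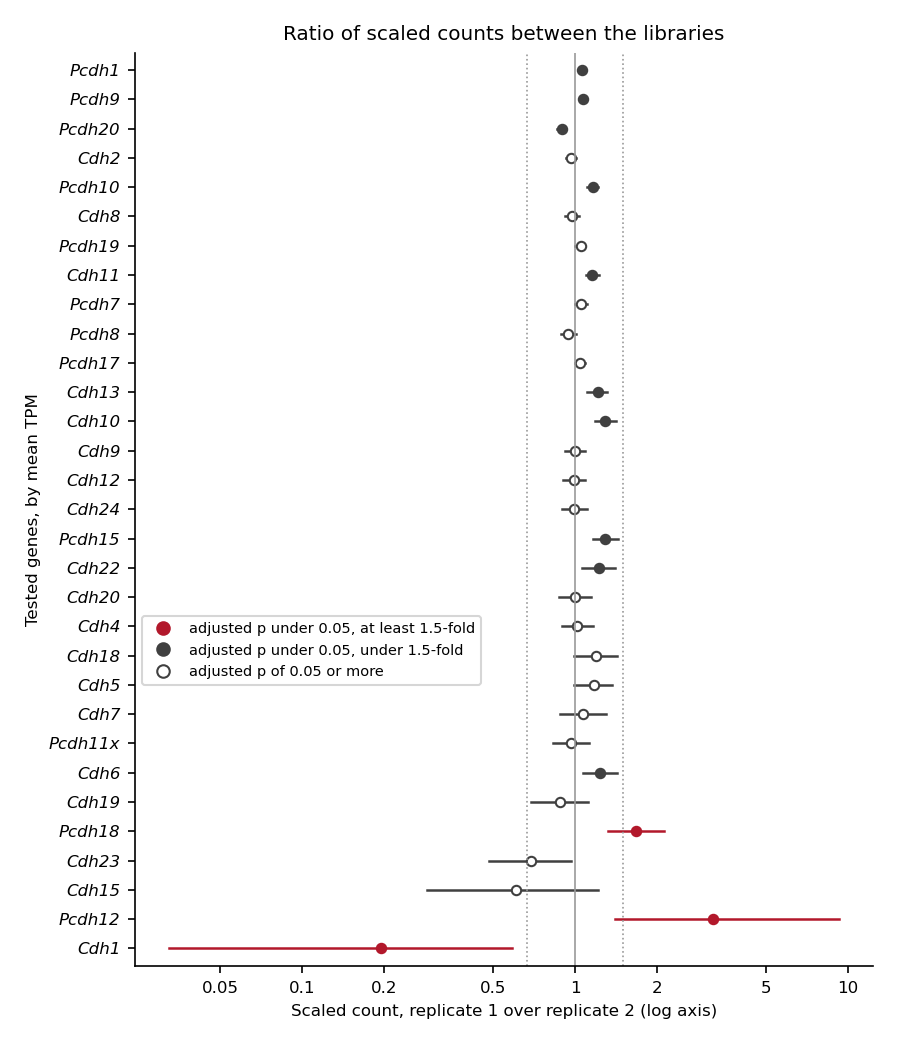
Ratio of scaled counts, replicate 1 over replicate 2 (horizontal log axis), with exact 95% intervals for the 31 tested genes in order of mean TPM; dotted lines mark 1.5-fold, red points are apart. The highest 27 genes except Pcdh18 lie inside the dotted lines, and intervals widen at the low-count end, where Pcdh12 and Cdh1 lie on opposite sides.

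For the other 18 members no difference was called. Cdh9, Cdh12, Cdh20 and Cdh24 had ratios of 0.999, 0.993, 0.998 and 0.995, with intervals that stayed between 0.876 and 1.14. For Cdh2 the interval was 0.924 to 1.01 and for Cdh8 0.918 to 1.03. Cdh5 had a ratio of 1.17 (interval 0.995 to 1.37). For the low genes the intervals were wide, 0.483 to 0.967 for Cdh23 (exact binomial test, adjusted p = 0.172) and 0.287 to 1.21 for Cdh15.

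Most of the genes that work with cadherins were expressed. Of 32 genes for catenins, other partners and processing enzymes, 28 reached 1 TPM in both libraries (87.5%, beside 57.8% of protein-coding genes). Beta-catenin, Ctnnb1, which links classical cadherins to alpha-catenin, led with 228.08 TPM in replicate 1 and 227.67 TPM in replicate 2. It was followed by 3 subunits of the WAVE complex, Nckap1 with 217.47 TPM in replicate 1 and 222.44 TPM in replicate 2, Cyfip2 with 201.75 TPM in replicate 1 and 194.02 TPM in replicate 2, and Wasf1 with 160.46 TPM in replicate 1 and 154.18 TPM in replicate 2. The plakophilins Pkp1 (0 counts in replicate 1 and 1 in replicate 2) and Pkp3 (1 count in each), proteins of desmosomes, were under 1 TPM in both libraries. The catenin Ctnna3, the alpha-catenin known from heart and testis, had 63 counts in replicate 1 and 33 in replicate 2 and was the only gene of the list that was apart (1.95 times as high in replicate 1, exact binomial test, adjusted p = 0.0208). The median log2 ratio of the list was -0.015.

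In the wider superfamily the calsyntenins and the seven-pass Celsr2 led. Of 25 further genes with cadherin domains, 14 reached 1 TPM in both libraries (56.0%, beside 57.8% of protein-coding genes). The calsyntenins, transmembrane proteins of synapses and vesicle transport, took 3 of the 4 highest places. Clstn1 had 336.00 TPM in replicate 1, against 295.32 TPM in replicate 2, Clstn3 had 115.29 TPM in replicate 1, against 100.84 TPM in replicate 2, and Clstn2 had 58.97 TPM in replicate 1, against 59.98 TPM in replicate 2. Celsr2, a planar polarity cadherin, had 78.45 TPM in replicate 1, against 75.32 TPM in replicate 2. Clstn1 was thus higher than every member, Pcdh1 included, in both libraries. Under 1 TPM in both libraries were the desmosomal Dsc1, Dsc2, Dsg1a, Dsg3 and Dsg4, the intestinal brush border cadherins Cdhr2 and Cdhr5, and Fat2. None of the 19 genes tested was apart by the exact test, although 5 had an adjusted p under 0.05 (beside 11.2% of all genes tested) and 7 an unadjusted p under 0.05.

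The members also share features of the genome that the rule did not use. Their median span was 123.3 kb, and the 27 at 1 TPM had a median of 153.5 kb, beside 25.9 kb for all protein-coding genes at 1 TPM. Pcdh15, Cdh12 and Cdh13 span 1550.4, 1140.3 and 1041.2 kb. At the other end, Pcdh8 spans 4.5 kb and Pcdh20 6.7 kb at levels near or above those of the long genes. Many lie in loose groups, with 8 on chromosome 8, 5 on chromosome 15 and 5 on chromosome 14. All 5 on chromosome 15 (Cdh6, Cdh9, Cdh10, Cdh12 and Cdh18) and all 5 on chromosome 14 (Cdh24, Pcdh8, Pcdh17, Pcdh20 and Pcdh9) were at 1 TPM or more. Only 4 of the 8 on chromosome 8 were, namely Cdh8, Cdh11, Cdh5 and Cdh13. Close neighbours could differ widely. Pcdh1 and Pcdh12 on chromosome 18 are 55.0 kb apart and had mean levels of 151.3 TPM and 0.230 TPM. Cdh3 and Cdh1 on chromosome 8 are 46.1 kb apart and were both near the limit of detection.

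Overlapping genes limit some values. For 9 members an overlapping gene had at least 10 counts on average, and for 3 of these on the opposite strand. Cdh23, with 58 counts in replicate 1 and 87 in replicate 2, overlaps the opposite-strand Vsir, which had 500 in replicate 1 and 531 in replicate 2. Pcdh7 overlaps 4932441J04Rik (117 counts in replicate 1 and 81 in replicate 2) and Pcdh17 overlaps 9630013A20Rik (61 counts in replicate 1 and 108 in replicate 2) on the opposite strand. Whether the counting used strand is not given in the sources used here, and reads of such pairs may not be told apart, which matters most for Cdh23. No member shared reads with a near-identical copy by the posterior spread of its count.

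The deposited files also allow each level to be read from a second quantification. Most levels were higher in the second table, and the median log2 ratio of first over second table was -0.74 in replicate 1 and -0.77 in replicate 2 over protein-coding genes at 1 TPM. Of the 27 members, 23 were at least 1.5-fold lower in the first table in both libraries, as were 78.3% of those genes. Relative to the median gene, none of the 27 was 1.5-fold higher or lower in both libraries, beside 1.37% higher and 3.20% lower among protein-coding genes. The median of the 27 lay at 0.061 in replicate 1 and 0.052 in replicate 2 on this log2 scale, and 26 of 27 lay within 1.5-fold in both libraries. Of the 27, Pcdh19 was farthest above, at 0.781 in replicate 1 and 0.485 in replicate 2, and in replicate 1 its level was slightly higher in the first table (37.22 TPM) than in the second (36.1 TPM). Cdh12 lay at -0.484 in replicate 1 and -0.295 in replicate 2, and Cdh19 at -0.425 in replicate 1 and -0.431 in replicate 2. Among the 27, Cdh5 moved most between the libraries, with 0.141 in replicate 1 and -0.515 in replicate 2. Its short transcript Cdh5-202, of 346 bases, had 11.2% in replicate 1 and 36.4% in replicate 2 of the gene's TPM in the second table. These shares rested on only 1.0 counts in replicate 1 and 4.0 in replicate 2.

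**Figure D4:**
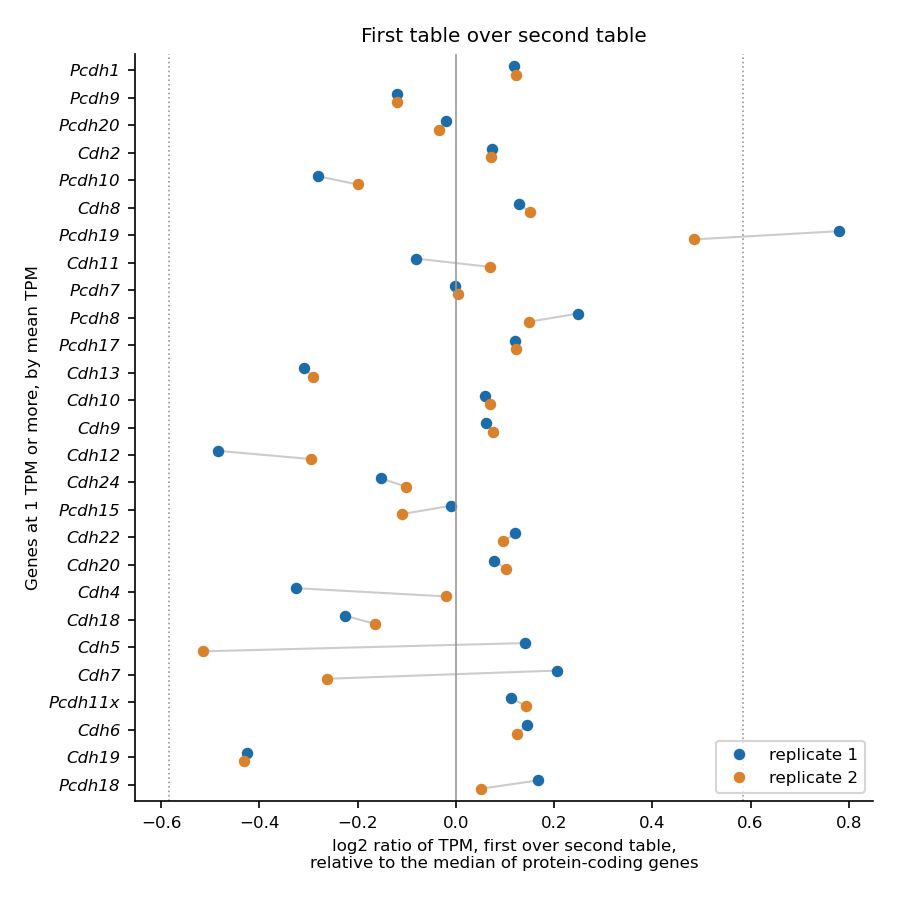
Log2 ratio of TPM, first over second table, relative to the median of protein-coding genes (horizontal axis), for the 27 genes at 1 TPM or more, with a point for replicate 1 and a point for replicate 2; dotted lines mark 1.5-fold. Only Pcdh19 in replicate 1 lies outside the dotted lines, at 0.781.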

How the data were processed

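Per the labels, each library was total RNA-seq of hippocampus with ERCC spike-ins. The authors deposited a gene table of expected counts and TPM, a first transcript table that adds each transcript's share of its gene as a percent, and a second transcript table of estimated counts and TPM from another program. Per the deposited description, the reference was mm10 with GENCODE M21. The programs, aligner and strand setting: not given in the sources used here.

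From these, expected counts were rounded and scaled with edgeR 4.0.16 (TMM) in R 4.3.3, and tested with SciPy 1.17.1. To each scaled count 0.5 was added before ratios were taken. Intervals are exact 95% Clopper-Pearson intervals, and intervals and floors cover counting error only. Transcript shares of the second table are shares of summed TPM; between tables, 0.01 was added and each table was rescaled over genes of both. DESeq2 1.42.0 size factors were an alternative. The test was tried on simulated counts with counting noise only. Those counts held no variation between animals, so the trial cannot show how the test treats it. Sequences come from GENCODE M21 transcripts read with Biopython 1.88. Genes were named by rule: all members, the 4 highest, undetected and apart genes of other lists, and transcripts with 20% of members at 10 TPM or more. The members and lists were chosen with earlier results of these data known.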

Additional observations from a re-analysis of the deposited data

How the results depend on the processing

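The number of members at 1 TPM in both libraries, 27, was 28 at 0.5 TPM, 19 at 5 TPM and 27 in the second table, and ran from 27 to 28 when a library was left out. The 3 members apart (Cdh1, Pcdh12 and Pcdh18) were the same genes with DESeq2 size factors, total counts or ERCC totals. With no filter on low counts there were also 3, Cdh3 in place of Pcdh12. A mean count of at least 50 left 1, Pcdh18, since Cdh1 and Pcdh12 were no longer tested, and no fold minimum gave 13, which takes in the smaller differences. The second table gave 2, without Pcdh12. Class shares moved by more than 1 SD in the second table for Cdh13 (3.15%, against 2.52%), delta-2 protocadherins (16.7%, against 17.9%), type II cadherins (23.1%, against 22.6%) and the seven-domain pair (0.0351%, against 7.90e-04%); the cause was not tested. Partner genes at 1 TPM were 29 in the second table and 29 without either library, and superfamily genes 16. Uncalled ratios near 1 changed direction, on the log2 scale. With total counts this was so for Cdh20 (0.005), Cdh24 (0.001) and Cdh9 (0.006). As a ratio of TPM it was so for Cdh12 (0.004), Cdh19 (0.034), Cdh20 (0.026), Cdh24 (0.021), Cdh7 (-0.028), Cdh9 (0.049), Pcdh7 (-0.086) and Pcdh8 (0.024). No called difference changed direction under these settings. No paired analysis was possible because there is a single group, and leaving out a library ends the test between the libraries. Low counts limit Cdh1, Cdh3, Cdh15, Cdh16, Cdh17, Cdh26 and Pcdh12 most, and sharing of reads among transcripts limits every transcript share.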
